A study of Homo sapiens with 45 samples.

Results

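The transcripts described here are those of the 9 genes that write, read and erase DNA methylation in human cells: the methyltransferases DNMT1, DNMT3A and DNMT3B, the maintenance factors UHRF1 and HELLS with the UHRF1 paralog UHRF2, and the dioxygenases TET1, TET2 and TET3. They were picked by symbol, with earlier results of these data known, and all 9 were found among the 29159 genes of the count tables. RNA-seq was available for 3 neuroblastoma cell lines, each as control, after 24 h of palbociclib (PB) and after a longer exposure, with 5 biological replicates per group and 45 libraries in all. PB, an inhibitor of the cyclin-dependent kinases CDK4 and CDK6, was given at 1 µM.

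SK-N-BE(2)C is MYCN amplified with loss of 1p. IMR-32 is MYCN and MEIS1 amplified with loss of 1p. SH-SY5Y is ALK mutant with gains of 1q and 17q. All are of the adrenergic type with wild-type CDK4 and CDK6, and SK-N-BE(2)C and SH-SY5Y are clonal sublines of older lines. The longer exposure lasted 7 d in SK-N-BE(2)C and 5 d in IMR-32 and SH-SY5Y, so its length cannot be told apart from the line. Controls were collected with the 24 h samples, and the longer exposure therefore also differed from control in time in culture. Replicates were different passages plated in independent experiments, and the labels give no batch.

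DNA methylation in vertebrates is copied at each round of replication. UHRF1 recognizes the half-methylated CpG sites left behind the replication fork and brings in DNMT1, which methylates the new strand, while the remodeler HELLS (also LSH) opens nucleosomes with its partner CDCA7 so that the enzyme can reach them. DNMT3A and DNMT3B place methylation on unmethylated DNA, DNMT3A being the form kept in neurons. The TET enzymes oxidize 5-methylcytosine toward removal by base excision repair, and TET enzymes and oxidized cytosines are abundant in the nervous system. PB keeps the RB protein unphosphorylated, which holds back the E2F factors that switch on genes of S phase, and the comparison asked of these data is whether the maintenance genes follow that program while the de novo and TET genes do not.

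Promoter windows from 250 bases before to 30 bases after the annotated start of each gene (GRCh37, GENCODE v44lift37 canonical transcript, written 5′ to 3′ on the gene's strand) were searched on both strands for the E2F words TTCCCGC, then TTCGCGC, then TTGCCGC and then TTGGCGC and for the CHR word TTTGAA, an element of genes active in G2 and mitosis. Those of the maintenance trio UHRF1, HELLS and DNMT1 are shown because their transcripts fell in every line, and that of DNMT3A because its transcript did not. Capitals mark the E2F words, which on the opposite strand read as their reverse complement.
UHRF1, chr19:4909263-4909542, plus strand: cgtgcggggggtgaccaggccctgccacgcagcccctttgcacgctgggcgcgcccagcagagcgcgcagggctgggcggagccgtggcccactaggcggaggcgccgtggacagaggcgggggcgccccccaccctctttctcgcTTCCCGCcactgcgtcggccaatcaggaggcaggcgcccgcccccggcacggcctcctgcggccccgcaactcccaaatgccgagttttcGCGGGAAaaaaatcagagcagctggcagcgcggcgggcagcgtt
HELLS, chr10:96305295-96305574, plus strand: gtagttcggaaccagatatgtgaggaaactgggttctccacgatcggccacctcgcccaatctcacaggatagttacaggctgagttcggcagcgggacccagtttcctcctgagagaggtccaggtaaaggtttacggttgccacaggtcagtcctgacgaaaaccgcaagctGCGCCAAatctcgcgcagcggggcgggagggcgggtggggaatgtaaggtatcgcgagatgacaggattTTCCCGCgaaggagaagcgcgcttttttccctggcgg
DNMT1, chr19:10305600-10305879, minus strand: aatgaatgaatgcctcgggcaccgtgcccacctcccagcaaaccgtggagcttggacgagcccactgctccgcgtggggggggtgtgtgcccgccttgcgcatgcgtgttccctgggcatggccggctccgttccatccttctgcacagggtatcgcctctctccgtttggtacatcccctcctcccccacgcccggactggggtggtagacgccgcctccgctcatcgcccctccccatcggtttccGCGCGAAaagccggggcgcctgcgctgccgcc
DNMT3A, chr2:25564765-25565044, minus strand: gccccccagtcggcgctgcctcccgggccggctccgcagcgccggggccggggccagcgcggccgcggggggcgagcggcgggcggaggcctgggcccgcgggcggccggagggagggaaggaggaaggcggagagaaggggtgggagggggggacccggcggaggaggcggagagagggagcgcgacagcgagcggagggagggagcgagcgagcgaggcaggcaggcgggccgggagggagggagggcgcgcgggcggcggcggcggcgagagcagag

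With the first transcribed base counted as 0, UHRF1 held 2 E2F words, at −104 to −98 and at −14 to −8, HELLS held 2, at −76 to −70 and at −7 to −1, and DNMT1 held 1, at −2 to 4. UHRF2 held 1 at −36 to −30 and TET3 held 1 at −132 to −126. The windows of DNMT3A, DNMT3B, TET1 and TET2 held no E2F word, and DNMT3B held 1 CHR word at −142 to −137. At least 1 E2F word was found in 16.2% and at least 2 in 2.24% of 19819 promoters of the same length, and the CHR word in 11.02%. All 9 windows were rich in G and C (52.5% in TET1 to 82.9% in DNMT3A), with 9 CpG sites in TET1, 22 in HELLS and 41 in DNMT3A. A match is only a string of letters, and no binding was measured here.

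**Figure D1:**
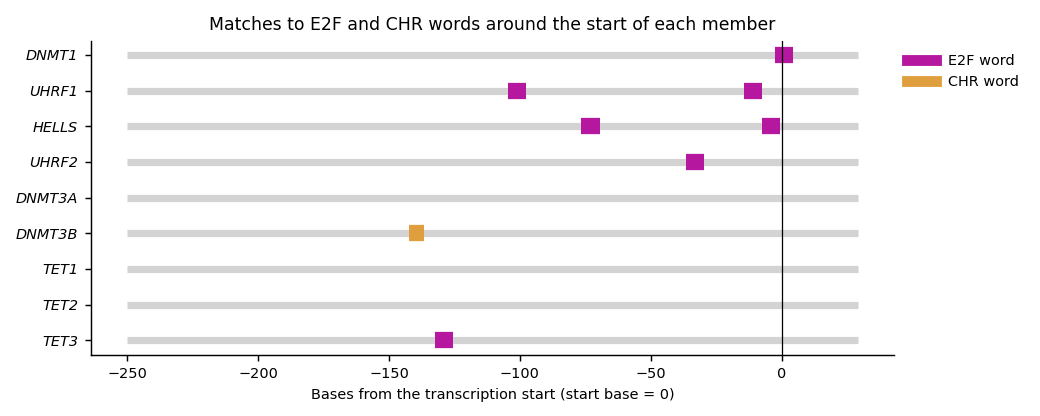
Position of each match to an E2F word or to the CHR word in the 280 bases around the start of each of the 9 genes (horizontal axis, bases from the start). UHRF1 and HELLS each show 2 E2F words and DNMT3A, TET1 and TET2 show no match.

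The genes lie at chr19:10244018-10341962 (DNMT1, minus strand), chr19:4903092-4962165 (UHRF1), chr10:96305086-96373662 (HELLS), chr9:6413151-6507054 (UHRF2), chr2:25450724-25565459 (DNMT3A, minus strand), chr20:31350191-31397165 (DNMT3B), chr10:70320094-70454244 (TET1), chr4:106067032-106200973 (TET2) and chr2:74212037-74335303 (TET3) of GRCh37, all protein coding and on the plus strand unless stated. No exon of another gene lies opposite theirs. Exons on the same strand overlap those of DNMT1 over 83 bases, HELLS over 438 and TET3 over 390, and reads there could not be assigned to one gene. Of the 3866 stretches of 32 bases in the UHRF1 transcript, 59.6% also occur at chr12:20704503-20707294, a processed copy, taken to be LOC728688 of the counts from its chromosome and length in the RefSeq gene table of another build. Counts of LOC728688 were 8.6% to 20.7% of those of UHRF1. UHRF2 shares 12.1% of its stretches with a place on chromosome X, and the other genes at most 2.79% with the rest of the genome. Summing UHRF1 and LOC728688, an alternative added after the data were seen, kept every call on UHRF1.

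Library totals ran from 13459219 to 25441812 counts, and levels are given as CPM, counts scaled to the library total, where 1 CPM stood for about 18.5 counts in the median library, and the 9 genes held 95 to 13358 counts per library. All 9 passed the filter on low counts in every line. Replicate 5 of IMR-32 stood apart from its group in control, at 24 h and at 5 d, as did replicate 2 of IMR-32 at 24 h. Replicates 3, 4 and 5 of SK-N-BE(2)C were closer to each other than to replicates 1 and 2 in control and at 24 h. Replicates 1 and 3 of SK-N-BE(2)C at 7 d and replicates 1 and 5 of SH-SY5Y at 5 d also lay far apart. Their chi-square over all counts, per degree of freedom, was 77.8 and 42.1, against 48.6 for replicates 2 and 5 of IMR-32 at 5 d. The 9 adrenergic markers had median sums of 3163, 4302 and 4462 CPM (control, 24 h, longer time) for SK-N-BE(2)C, 2848, 3692 and 3203 CPM for IMR-32 and 5122, 7610 and 5696 CPM for SH-SY5Y. The 3 Schwann cell markers stood at 1.15 to 14.0 CPM per library, with medians of 6.39, 13.4 and 11.9 CPM for SK-N-BE(2)C, 2.80, 3.36 and 6.05 for IMR-32 and 3.05, 4.15 and 3.67 for SH-SY5Y. The 6 mesenchymal and fibroblast markers had median sums of 246, 266 and 411 CPM for SK-N-BE(2)C, 109, 89.0 and 25.1 CPM for IMR-32 and 103, 112 and 101 CPM for SH-SY5Y. At 24 h 1, 4 and 2 adrenergic markers were called higher (SK-N-BE(2)C, IMR-32, SH-SY5Y) and 0 lower, the 4 being 2 by DESeq2. Of the Schwann cell markers 2, 0 and 1 were then higher and 0 lower. Of all genes 10.9%, 7.87% and 10.5% were higher. Late calls among the mesenchymal and fibroblast markers were 2 higher and 2 lower for SK-N-BE(2)C (24.5% and 22.3% of all genes). They were 1 higher and 1 lower for IMR-32 (16.6% and 15.5%), and 2 higher and 1 lower for SH-SY5Y (18.6% and 17.3%). DCN, a matrix proteoglycan, was then higher in each line (1.23 ± 0.14, 2.40 ± 0.76 and 0.96 ± 0.32, edgeR adjusted p 6.82e-07, 0.0155 and 0.0163), though IMR-32 held at most 2.14 CPM of it. The part of the 3 marker lists in the results was not tested. In bulk RNA, fewer cells in S phase and less RNA per cell cannot be told apart.

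A gene was called when the edgeR quasi-likelihood test gave an adjusted p (Benjamini-Hochberg, over all genes tested) under 0.05 and the log2 fold change passed 0.5 in either direction, and "rose" and "fell" are used of called genes. At 24 h of PB, 5 of the 9 genes fell in SK-N-BE(2)C, where 10.6% of all genes tested were called lower and 10.9% higher. In IMR-32, 4 of the 9 fell, against 10.5% of all genes lower and 7.87% higher, and in SH-SY5Y 5 of the 9 fell, against 11% lower and 10.5% higher. At the longer time 5 of the 9 were called lower and 1 higher in SK-N-BE(2)C (22.3% and 24.5% of all genes), 3 lower in IMR-32 (15.5% lower and 16.6% higher of all genes) and 5 lower in SH-SY5Y (17.3% and 18.6%). The 24 h and longer comparisons of a line share their control libraries. Where groups are said to be separate or not to overlap, this describes the gene named. The share of all genes with separate groups was not counted.

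**Figure D2:**
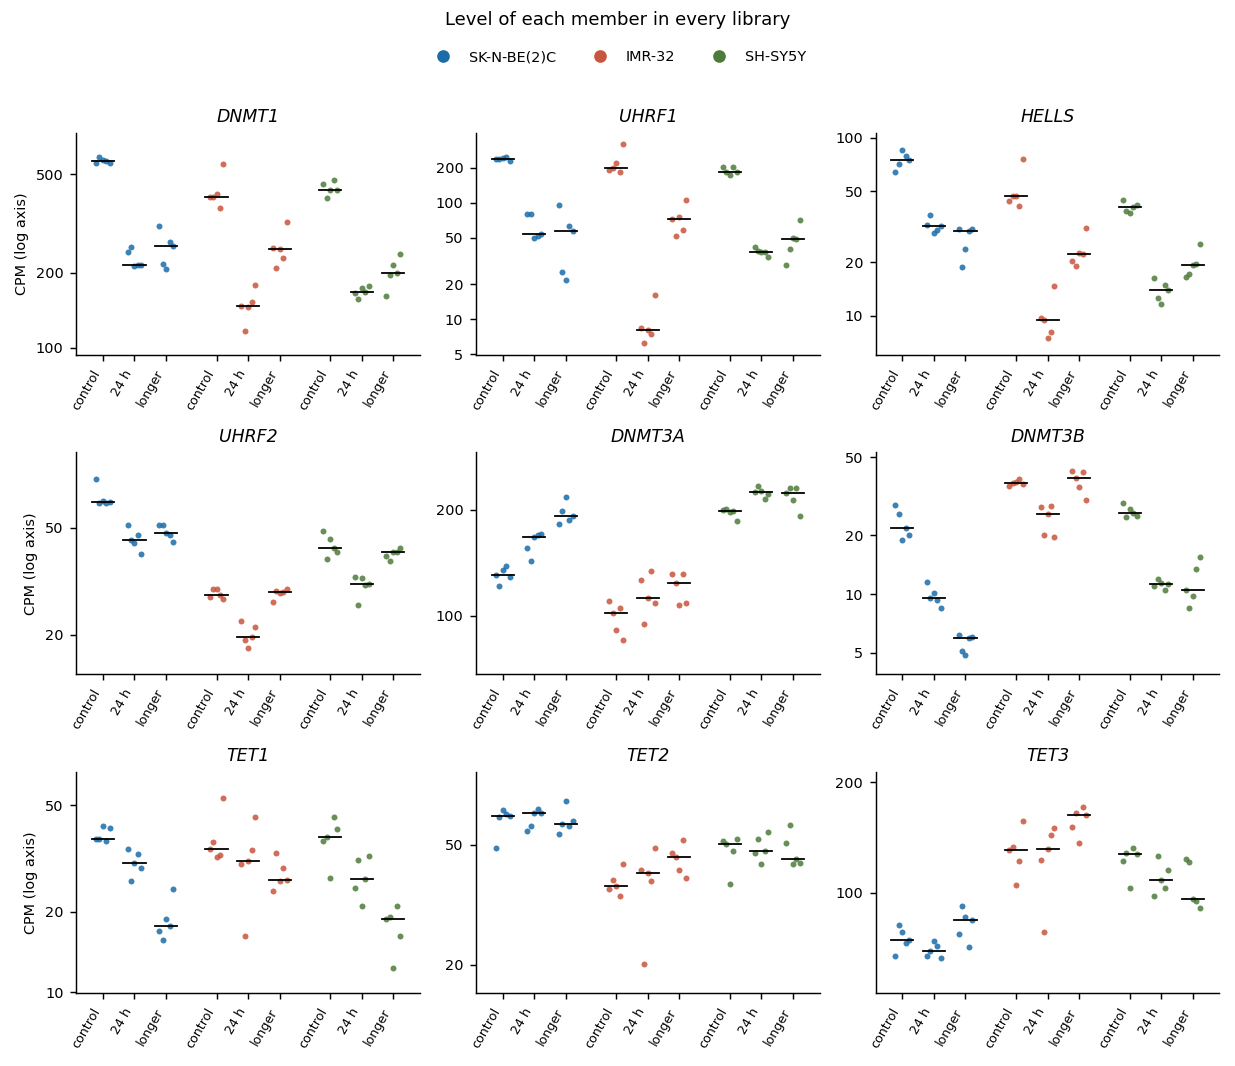
Level of the 9 genes in every library, 1 panel per gene, as CPM on a log axis. Each point is 1 library of control, 24 h PB or longer PB in the 3 lines, and short bars are group medians. UHRF1 in IMR-32 dropped from between 185 and 318 CPM in control to between 6.21 and 16.3 at 24 h.

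DNMT1, the maintenance methyltransferase, was the most abundant of the 9 genes per length in every group and fell in all 3 lines at both times. In SK-N-BE(2)C the control libraries held 558, 586, 570, 566 and 558 CPM, the 24 h libraries 242, 255.7, 214, 216 and 216, and the 7 d libraries 310, 217, 208, 267 and 257. Every treated library lay below every control. The log2 fold change was −1.34 ± 0.10 (SE, n = 5 per group, edgeR adjusted p 1.93e-08) at 24 h and −1.21 ± 0.10 (edgeR adjusted p 1.16e-08) at 7 d. IMR-32 controls held 406, 405, 415, 366 and 550 CPM, against 147, 117, 146, 153 and 178 at 24 h and 251, 210, 251, 229 and 321 at 5 d. The 3 groups of IMR-32 did not overlap, with 24 h lowest and 5 d between. The changes from control were −1.49 ± 0.14 (edgeR adjusted p 4.72e-07) and −0.78 ± 0.13 (edgeR adjusted p 0.000240). SH-SY5Y held 458, 403, 434, 476 and 433 CPM in control, 166, 157, 173, 168 and 177 at 24 h, and 161, 195, 216, 200 and 239 at 5 d. Both treated groups lay below the controls, at −1.40 ± 0.09 (edgeR adjusted p 8.02e-10) and −1.19 ± 0.09 (edgeR adjusted p 3.51e-09).

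UHRF1, the reader that recruits DNMT1, had the largest fold change of the 9 genes in each line at 24 h, and fell furthest in IMR-32. Its controls in IMR-32 held 191, 200, 219, 185 and 318 CPM, and the 24 h libraries held 8.46, 6.21, 8.03, 7.54 and 16.3. The log2 fold change of −4.55 ± 0.29 (edgeR adjusted p 1.15e-08) left 4.27% of the control level and was the 6th largest fall of 14293 genes tested. Without replicate 5 of all 3 groups it was −4.66. At 5 d the libraries held 72.1, 52.3, 76.3, 58.6 and 106 CPM, all above 24 h and all below control (−1.62 ± 0.25, edgeR adjusted p 0.000104). In SK-N-BE(2)C, UHRF1 was tight in control (237, 239, 241, 245 and 229 CPM), in 2 tiers at 24 h (80.6 and 81.0 in replicates 1 and 2, then 49.8, 52.3 and 54.3) and widely spread at 7 d (95.0, 25.8, 21.9, 63.7 and 57.1). No treated library reached a control, and the changes were −1.93 ± 0.32 (edgeR adjusted p 0.000198) and −2.22 ± 0.33 (edgeR adjusted p 2.41e-05). SH-SY5Y went from 202, 185, 175, 203 and 185 CPM to 42.1, 38.7, 37.6, 37.6 and 34.6 at 24 h and 29.2, 40.2, 50.02, 49.4 and 70.7 at 5 d. The 24 h libraries lay within a narrow band and the 5 d libraries straddled it, with changes of −2.33 ± 0.17 (edgeR adjusted p 3.47e-08) and −2.05 ± 0.17 (edgeR adjusted p 5.87e-08).

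HELLS, the remodeler of the maintenance step, fell in all 3 lines at both times. SK-N-BE(2)C libraries held 63.9, 71.7, 85.1, 79.3 and 75.4 CPM in control, 32.5, 36.99, 29.3, 30.3 and 32.2 at 24 h, and 30.9, 18.8, 23.6, 30.1 and 30.9 at 7 d. The treated groups overlapped each other and not the controls, at −1.25 ± 0.12 (edgeR adjusted p 6.62e-07) and −1.52 ± 0.13 (edgeR adjusted p 2.05e-08). IMR-32 libraries held 44.1, 47.2, 47.4, 41.2 and 75.9 CPM in control, 9.68, 9.42, 7.54, 8.14 and 14.8 at 24 h, and 20.3, 19.0, 22.5, 22.1 and 31.1 at 5 d. No library of one group overlapped another group, and the changes were −2.33 ± 0.21 (edgeR adjusted p 4.92e-07) and −1.17 ± 0.20 (edgeR adjusted p 0.000248). SH-SY5Y fell from 37.6 to 44.8 CPM in control to 11.6 to 16.4 at 24 h and 16.5 to 25.4 at 5 d (−1.57 ± 0.11 and −1.13 ± 0.11, edgeR adjusted p 4.80e-09 and 9.11e-08).

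UHRF2, the paralog that does not replace UHRF1 in maintenance, moved less. At 24 h it was called lower in SK-N-BE(2)C (61.6 to 76.1 CPM in control, 39.8 to 51.0 at 24 h, −0.55 ± 0.08, edgeR adjusted p 2.53e-05) and in SH-SY5Y (38.1 to 48.5 against 25.7 to 32.9, −0.50 ± 0.08, edgeR adjusted p 2.90e-05). In IMR-32 the 24 h libraries (17.8 to 22.5 CPM) also lay below every control (27.1 to 29.6), at −0.45 ± 0.07, inside the fold limit (past it, at −0.505, without replicate 1 of all 3 groups). All 3 values sit near that limit: the call in SK-N-BE(2)C was lost without control replicate 1 (−0.48), and that in SH-SY5Y without control replicate 1 (−0.46) or 3 (−0.48) or 24 h replicate 2 (−0.47), with library size alone (−0.49) or with all 45 libraries in 1 fit (−0.47). At the longer time UHRF2 was called in no line, with changes of −0.48 ± 0.08 for SK-N-BE(2)C, −0.01 ± 0.07 for IMR-32 and −0.17 ± 0.08 for SH-SY5Y. The first of these passed the fold limit with no filter on low counts (−0.50), without 7 d replicate 1 (−0.51) and without replicate 2 of all 3 groups (−0.52).

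**Figure D3:**
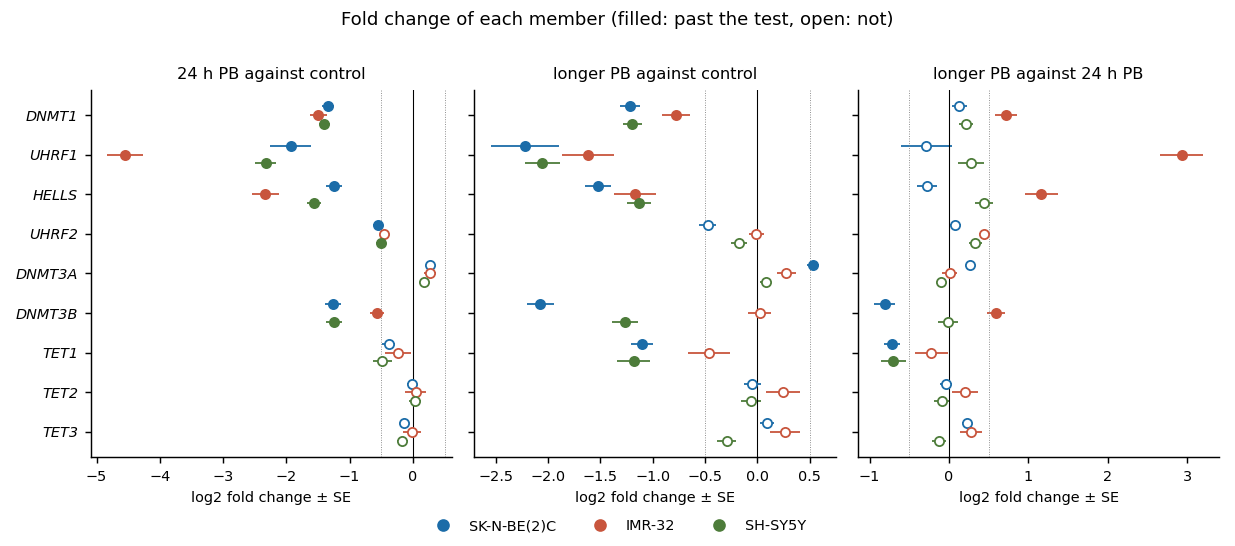
Log2 fold change from control of the 9 genes with its SE, at 24 h and at the longer time, 1 color per line; filled points passed the test. DNMT1, UHRF1 and HELLS lie left of −0.5 in every line at both times, and TET2 and TET3 lie between −0.29 and 0.27.

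DNMT3A, a de novo enzyme and more abundant than DNMT3B in every group, rose in SK-N-BE(2)C at 7 d. There the controls held 131, 122, 135, 139 and 129 CPM, the 24 h libraries 155, 143, 167, 170 and 171, and the 7 d libraries 182, 198, 218, 188 and 193. The 3 groups did not overlap. The 24 h change of 0.27 ± 0.06 (edgeR adjusted p 0.00134) stayed inside the fold limit and the 7 d change of 0.54 ± 0.06 (edgeR adjusted p 4.86e-07) passed it, though not without 7 d replicate 3 (0.49). In IMR-32 (85.2 to 110 CPM in control, 94.8 to 134 at 24 h, 107 to 132 at 5 d) the changes were 0.27 ± 0.09 and 0.28 ± 0.09, and in SH-SY5Y (186 to 201, 216 to 233 and 193 to 231 CPM) they were 0.18 ± 0.05 and 0.08 ± 0.05. No DNMT3A difference was called in those lines, and the IMR-32 groups overlapped.

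DNMT3B, the de novo enzyme prominent in early embryos, changed by about the same amount at 24 h in SK-N-BE(2)C and SH-SY5Y and by less in IMR-32. At the longer time its change differed in each line. SK-N-BE(2)C libraries held 28.5, 25.6, 18.8, 21.8 and 20.01 CPM in control, 11.5, 9.59, 10.1, 9.31 and 8.44 at 24 h, and 6.19, 5.13, 4.88, 5.96 and 6.003 at 7 d. The groups formed 3 separate steps, with changes from control of −1.26 ± 0.12 (edgeR adjusted p 5.91e-07) and −2.07 ± 0.13 (edgeR adjusted p 1.05e-09). In SH-SY5Y it went from 29.2, 24.9, 27.1, 25.996 and 24.9 CPM to 10.98, 11.9, 11.4, 10.4 and 11.2 at 24 h and stayed at 10.5, 8.48, 9.80, 13.5 and 15.4 at 5 d. Both treated groups lay below control, at −1.25 ± 0.12 (edgeR adjusted p 2.01e-07) and −1.27 ± 0.12 (edgeR adjusted p 8.69e-08). IMR-32 libraries held 35.6, 36.8, 37.5, 38.5 and 36.4 CPM in control, 27.8, 20.03, 25.6, 28.1 and 19.5 at 24 h, and 42.3, 39.2, 35.4, 42.2 and 30.2 at 5 d. All 24 h libraries were below control while the 5 d libraries lay on both sides of it. The 24 h fall of −0.57 ± 0.11 (edgeR adjusted p 0.00113) was inside the fold limit without 24 h replicate 5 (−0.496) or replicate 5 of all 3 groups (−0.49), and the 5 d value was 0.02 ± 0.11 (edgeR adjusted p 0.876).

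Of the TET enzymes, TET1 fell at the longer time in 2 lines. SK-N-BE(2)C libraries held 37.5, 37.6, 41.7, 36.9 and 41.2 CPM in control, 34.3, 26.1, 30.5, 33.0 and 29.2 at 24 h, and 16.9, 15.7, 18.8, 17.7 and 24.4 at 7 d. The groups were separate and stepped down, at −0.38 ± 0.10 from control at 24 h (edgeR adjusted p 0.00573, inside the fold limit) and −1.10 ± 0.10 at 7 d (edgeR adjusted p 9.93e-08). SH-SY5Y held 36.9, 38.2, 26.8, 45.3 and 40.8 CPM in control, 24.6, 31.3, 21.1, 26.5 and 32.4 at 24 h, and 18.7, 19.0, 12.4, 20.9 and 16.2 at 5 d. Control and 24 h overlapped while every 5 d library was below both. The change was −0.48 ± 0.15 at 24 h (edgeR adjusted p 0.0137, called with RLE size factors at −0.50 and with DESeq2 at −0.50, and at −0.51 to −0.58 without control replicate 3, 24 h replicate 2 or 5, or 5 d replicate 1, 2 or 5) and −1.18 ± 0.15 at 5 d (edgeR adjusted p 3.80e-06). In IMR-32, with 34.2, 36.5, 32.2, 32.5 and 53.4 CPM in control, 30.2, 16.2, 30.9, 33.9 and 45.3 at 24 h and 24.0, 33.2, 26.1, 29.1 and 26.2 at 5 d, the groups overlapped, at −0.24 ± 0.20 and −0.46 ± 0.20 (edgeR adjusted p 0.400 and 0.0713), the latter being called without replicate 2 of all 3 groups (−0.54, edgeR adjusted p 0.0285).

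TET2 and TET3 were not called in any line at either time. In the order control, 24 h and longer time, SK-N-BE(2)C had TET2 medians of 62.1, 63.5 and 58.4 CPM, IMR-32 of 36.4, 40.4 and 45.5, and SH-SY5Y of 50.2, 47.7 and 44.7, with changes from −0.06 to 0.25. For TET3, SK-N-BE(2)C had medians of 74.3, 69.6 and 84.2 CPM, IMR-32 of 131, 132 and 163, and SH-SY5Y of 128, 108 and 96.1, with changes from −0.29 ± 0.09 (SH-SY5Y at 5 d, edgeR adjusted p 0.00906) to 0.27 ± 0.14 (IMR-32 at 5 d). Treated and control libraries overlapped in every one of these comparisons, and the SE ran from 0.07 to 0.16. The 24 h replicate 2 of IMR-32 was low for all 3 TET genes (16.2, 20.1 and 78.0 CPM for TET1, TET2 and TET3). In that library, transcripts over 7 kb (1846 genes) lay 0.56 lower on the log2 scale, against transcripts under 2 kb (3080 genes), than in its group, while the other 44 libraries ranged from −0.199 to 0.187. The TET transcripts are 9.61, 9.59 and 12.1 kb long. Without that library the IMR-32 changes at 24 h were −0.08 for TET1, 0.19 for TET2 and 0.10 for TET3.

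From 24 h to the longer time the maintenance genes rose in IMR-32. There DNMT1 rose by 0.72 ± 0.13, UHRF1 by 2.93 ± 0.27 (7.62-fold), HELLS by 1.16 ± 0.21 and DNMT3B by 0.59 ± 0.11 on the log2 scale (edgeR adjusted p 0.000862, 2.12e-06, 0.000618 and 0.000918), that is 4 of the 9 genes, where 10.8% of all genes tested were called higher and 8.86% lower. All 5 d libraries of these 4 genes lay above all 24 h libraries, as did those of UHRF2, at 0.44 ± 0.07 (edgeR adjusted p 0.000235), inside the fold limit but called with library size alone (0.5004) or without replicate 1 of all 3 groups (0.51). DNMT3A and the TET genes ran from −0.22 ± 0.20 to 0.28 ± 0.14. In SK-N-BE(2)C, 2 of the 9 genes fell between 24 h and 7 d, DNMT3B at −0.81 ± 0.13 and TET1 at −0.72 ± 0.10 (edgeR adjusted p 6.11e-05 and 2.39e-05), where 14.4% of all genes were called lower and 17.5% higher. The maintenance trio showed 0.13 ± 0.09 (DNMT1), −0.29 ± 0.32 (UHRF1) and −0.28 ± 0.13 (HELLS), none called. DNMT3A was at 0.27 ± 0.06 there, with separate groups inside the fold limit, and UHRF2, TET2 and TET3 ran from −0.04 ± 0.08 to 0.23 ± 0.07. SH-SY5Y had 1 call, a fall of TET1 of −0.70 ± 0.16 (edgeR adjusted p 0.00182), against 6.23% of all genes lower and 10.5% higher. HELLS there was at 0.44 ± 0.12 and UHRF2 at 0.33 ± 0.08, each with all 5 d libraries above all 24 h libraries and inside the fold limit. That of HELLS was called without 5 d replicate 1 (0.52) or 2 (0.505) or replicate 1 of all 3 groups (0.56). The other 6 genes ran from −0.13 ± 0.09 to 0.28 ± 0.17.

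Fold changes were compared between lines in 1 fit of all 45 libraries with a term for line by treatment. At 24 h, UHRF1 had fallen further in IMR-32 than in SK-N-BE(2)C, with a difference of −2.62 ± 0.39 (edgeR adjusted p 2.13e-05) and HELLS at −1.09 ± 0.22 (edgeR adjusted p 0.00151), while DNMT3B had fallen less, by 0.69 ± 0.17 (edgeR adjusted p 0.00863). These 3 of 9 genes compare with 4.49% of all genes. The same 3 differed between SH-SY5Y and IMR-32 (UHRF1 2.26 ± 0.39, HELLS 0.80 ± 0.23, DNMT3B −0.65 ± 0.17, edgeR adjusted p 0.000255, 0.0348 and 0.0206), against 3.07% of all genes. The HELLS difference was near the threshold. It was not called with no filter on low counts (adjusted p 0.052), nor without any 1 of these libraries: control replicate 5 and 24 h replicates 1, 2, 3 and 4 of IMR-32, and control replicates 2 and 3 and 24 h replicates 1 and 4 of SH-SY5Y (adjusted p 0.0504 to 0.0814). With replicate numbers of a line left out as well, it was lost in 18 of 60 cases (adjusted p up to 0.0902). The DNMT3B difference was lost in 6 of 60, without replicate 1, 3 or 4 of either line (adjusted p 0.0506 to 0.0727). Between SH-SY5Y and SK-N-BE(2)C edgeR called 0 of the 9 genes (0 also at an unadjusted p under 0.05 and 0 by DESeq2), where 2.04% of all genes were called, with differences from −0.36 ± 0.37 (UHRF1) to 0.07 ± 0.10 (UHRF2). The DNMT1 differences were −0.15 ± 0.16, −0.03 ± 0.16 and 0.12 ± 0.16 for the 3 pairs, and UHRF2, DNMT3A and the TET genes ran from −0.21 ± 0.23 to 0.14 ± 0.23, none called.

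At the longer time the lines parted on DNMT3B. Its change in IMR-32 exceeded that in SK-N-BE(2)C by 2.07 ± 0.18 (edgeR adjusted p 8.55e-12), that in SH-SY5Y exceeded SK-N-BE(2)C by 0.84 ± 0.18 (edgeR adjusted p 0.000368), and SH-SY5Y lay below IMR-32, at −1.23 ± 0.17 (edgeR adjusted p 6.42e-07). TET1 had fallen less in IMR-32 than in SK-N-BE(2)C (0.61 ± 0.24, edgeR adjusted p 0.0393) and further in SH-SY5Y than in IMR-32 (−0.66 ± 0.24, edgeR adjusted p 0.0290), and TET3 differed between SH-SY5Y and IMR-32, at −0.50 ± 0.15 (edgeR adjusted p 0.0109). The first of these TET differences was not called with RLE size factors (adjusted p 0.0522), with DESeq2 (0.0510) or with no filter on low counts (0.0814), and leaving out 1 library, or 1 replicate number of a line, ended the 3 calls in 23, 10 and 33 of 60 cases. Over all genes 23.9%, 21.2% and 20.8% differed between IMR-32 and SK-N-BE(2)C, SH-SY5Y and SK-N-BE(2)C, and SH-SY5Y and IMR-32. DNMT1, UHRF1 and HELLS were not called in any pair, with differences from −0.38 ± 0.37 to 0.57 ± 0.37. The DNMT1 difference of IMR-32 from SK-N-BE(2)C (0.41 ± 0.16) was called without IMR-32 control replicate 5 (0.52), SK-N-BE(2)C 7 d replicate 1 (0.51) or replicate 1 of SK-N-BE(2)C as a whole (0.501). UHRF2 (−0.11 ± 0.10 to 0.44 ± 0.10), DNMT3A (−0.42 ± 0.10 to −0.14 ± 0.10) and TET2 (−0.25 ± 0.17 to 0.26 ± 0.17) were not called either, nor were the remaining pairs of TET1 (−0.05 ± 0.24) and TET3 (0.15 ± 0.15 and −0.35 ± 0.15).

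Levels of different genes were set side by side as CPM per kb of canonical transcript. In control SK-N-BE(2)C the order was DNMT1 (108 ± 2.21 CPM per kb, SD, n = 5), UHRF1 (61.2 ± 1.60), HELLS (24.0 ± 2.55), UHRF2 (18.2 ± 1.75), DNMT3A (13.9 ± 0.69), TET2 (6.27 ± 0.67), TET3 (6.22 ± 0.45), DNMT3B (5.29 ± 0.93) and TET1 (4.06 ± 0.24). HELLS overlapped UHRF2, and TET2, TET3, DNMT3B and TET1 each overlapped the next. Control IMR-32 ran from DNMT1 (81.2 ± 13.4) and UHRF1 (57.1 ± 14.0), which overlapped through replicate 5, over HELLS (16.4 ± 4.49), TET3 (10.7 ± 1.58), DNMT3A (10.5 ± 1.09), DNMT3B (8.52 ± 0.25) and UHRF2 (7.93 ± 0.31) to TET1 (3.93 ± 0.93) and TET2 (3.91 ± 0.37). In control SH-SY5Y, DNMT3A (20.9 ± 0.66) came after DNMT1 (83.6 ± 5.28) and UHRF1 (48.7 ± 3.11), ahead of HELLS (13.1 ± 0.89), UHRF2 (12.01 ± 1.14), TET3 (10.2 ± 0.95), DNMT3B (6.09 ± 0.42), TET2 (4.97 ± 0.64) and TET1 (3.91 ± 0.71). After 24 h of PB in IMR-32, UHRF1 (2.39 ± 1.03) had gone from the second to the lowest mean of the 9, next to HELLS (3.17 ± 0.92), with DNMT1 still highest (28.1 ± 4.14).

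Control levels of 7 of the 9 genes differed between at least 1 pair of lines, a count over 3 pairs whose share over all genes was not taken. By pair, 3 of the 9 were lower and 2 higher in IMR-32 than in SK-N-BE(2)C, where 62.1% of all genes were called. In SH-SY5Y 4 were lower and 1 higher than in SK-N-BE(2)C (57.5% of all genes), and 2 lower and 1 higher than in IMR-32 (54.2%). Such differences were thus common among all genes. UHRF2 was lower than in SK-N-BE(2)C, at −1.21 ± 0.07 in IMR-32 and −0.80 ± 0.07 in SH-SY5Y, HELLS at −0.57 ± 0.15 and −1.08 ± 0.16, and TET2 at −0.70 ± 0.12 and −0.54 ± 0.12, while TET3 was higher by 0.77 ± 0.11 and 0.51 ± 0.11 on the log2 scale. DNMT3A was 0.81 ± 0.07 higher in SH-SY5Y than in IMR-32, and DNMT3B was 0.67 ± 0.12 higher in IMR-32 than in SK-N-BE(2)C and lower in SH-SY5Y than in IMR-32, at −0.67 ± 0.12. DNMT1 was lower in SH-SY5Y than in SK-N-BE(2)C, at −0.57 ± 0.11. Pairs of these 7 genes that were not called ran from −0.43 ± 0.07 (DNMT3A of IMR-32 against SK-N-BE(2)C) to 0.41 ± 0.07 (UHRF2 of SH-SY5Y against IMR-32). With library size alone as scaling, DNMT1 (−0.36) and TET2 (−0.33) of SH-SY5Y against SK-N-BE(2)C and HELLS (−0.32) and DNMT3B (−0.48) of SH-SY5Y against IMR-32 were inside the limit, as was that TET2 difference with RLE size factors (−0.50), DESeq2 (−0.50) or no filter (−0.49). Library size alone added 2 calls, DNMT3A of SH-SY5Y against SK-N-BE(2)C (0.59) and UHRF2 of SH-SY5Y against IMR-32 (0.60). Leaving out 1 control library also brought inside the limit HELLS of IMR-32 against SK-N-BE(2)C (−0.499 without IMR-32 replicate 4) and TET3 of SH-SY5Y against SK-N-BE(2)C (0.486 without SK-N-BE(2)C replicate 1, 0.488 without SH-SY5Y replicate 4). TET2 of SH-SY5Y against SK-N-BE(2)C went to −0.45 without SH-SY5Y replicate 3 and −0.49 without SK-N-BE(2)C replicate 3. HELLS of SH-SY5Y against IMR-32, at −0.51 ± 0.15, went to −0.32 without IMR-32 replicate 5, −0.49 without SH-SY5Y replicate 2 and −0.48 without SH-SY5Y replicate 3, while DNMT1 of IMR-32 against SK-N-BE(2)C (−0.42 ± 0.11) passed the limit without IMR-32 replicate 5 (−0.53). UHRF1 and TET1 were called between no pair, at −0.53 ± 0.26 to −0.06 ± 0.16.

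The make-up of the methyltransferase transcripts shifted away from DNMT1. Of the CPM per kb of DNMT1, DNMT3A and DNMT3B together, DNMT1 made up a median of 85.2% (83.8% to 85.5%) in control SK-N-BE(2)C, 67.1% (66.9% to 73.6%) at 24 h and 69.1% (62.0% to 73.9%) at 7 d. In IMR-32 the medians were 79.9%, 60.2% and 66.8%, and in SH-SY5Y 75.6%, 55.2% and 58.4%. No treated library reached a control library of its line. The DNMT3A share went from 11.04% to 29.2% and 28.9% in SK-N-BE(2)C, from 11.2% to 27.3% and 19.5% in IMR-32, and from 18.5% to 40.4% and 37.4% in SH-SY5Y, while DNMT3B held 8.84%, 13.0% and 13.7% in IMR-32 and fell from 3.96% to 1.87% by 7 d in SK-N-BE(2)C. These shares carry no test, since they restate the changes above on one scale.

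The ratio of summed TET to summed DNMT transcripts was higher after PB in every line. Medians of the TET sum were 16.9, 15.2 and 15.4 CPM per kb in control, 24 h and 7 d of SK-N-BE(2)C, 18.1, 18.3 and 20.3 in control, 24 h and 5 d of IMR-32, and 19.8, 16.3 and 14.7 in SH-SY5Y. Those of the DNMT sum were 127, 61.1 and 70.6, then 96.9, 47.7 and 67.2, then 109, 57.9 and 65.4. SK-N-BE(2)C had 0.132, 0.249 and 0.223 TET transcripts per DNMT transcript, IMR-32 had 0.190, 0.391 and 0.279, and SH-SY5Y had 0.176, 0.285 and 0.225, with every treated library above every control of its line. Within the TET family, TET1 made up a median of 24.6% in control and 12.7% at 7 d of SK-N-BE(2)C, 20.05% and 11.1% at 5 d in SH-SY5Y, and 20.1% and 13.4% in IMR-32. UHRF1 per DNMT1 (control, 24 h, longer time) had medians of 0.573, 0.340 and 0.300 for SK-N-BE(2)C, 0.685, 0.0746 and 0.388 for IMR-32, and 0.577, 0.302 and 0.313 for SH-SY5Y.

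**Figure D4:**
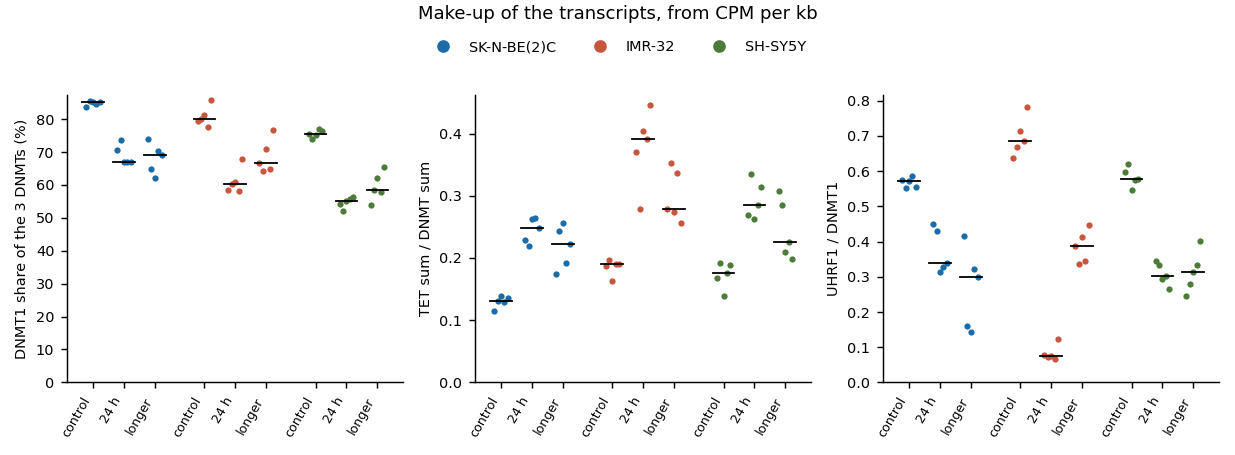
Make-up of the transcripts from CPM per kb, 1 point per library for control, 24 h PB and longer PB of each line: the DNMT1 percentage of the 3 methyltransferases, the TET sum per DNMT sum, and UHRF1 per DNMT1. The lowest DNMT1 share of any control library was 73.8% (SH-SY5Y), and UHRF1 per DNMT1 in IMR-32 lay between 0.0668 and 0.124 at 24 h.

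The other genes of the pathway were taken from lists by role. Of 6 partners of maintenance, 4 fell at 24 h in each line, with list medians of −2.01, −2.44 and −1.96 (SK-N-BE(2)C, IMR-32, SH-SY5Y) against medians over all genes of 0.02, 0.06 and 0.04, and 6, 4 and 5 fell at the longer time. The shares of all genes called lower were 10.6%, 10.5% and 11% at 24 h, then 22.3%, 15.5% and 17.3%. CDCA7, the partner of HELLS, fell, at −1.40 ± 0.26, −2.36 ± 0.20 and −2.09 ± 0.35 at 24 h and at −2.62 ± 0.28, −1.19 ± 0.19 and −2.02 ± 0.35 at the longer time. PCNA, the sliding clamp that holds DNMT1 at the fork, fell, at −2.61 ± 0.31, −2.93 ± 0.15 and −2.53 ± 0.21 at 24 h. LIG1, the ligase whose methylated form UHRF1 binds, fell, at −2.76 ± 0.19, −2.52 ± 0.07 and −1.83 ± 0.13, and the clamp factor PCLAF at −2.96 ± 0.29, −3.50 ± 0.29 and −3.85 ± 0.36. The deubiquitinase USP7 was at −0.29, −0.14 and −0.21 and the zinc finger factor ZBTB24 at −0.23, −0.43 and −0.38 at 24 h, none called.

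Genes of S phase with no role in methylation served as reference. Of 17 such genes 16, 17 and 17 fell at 24 h, with medians of −1.62, −2.30 and −2.02, and 16, 14 and 16 fell at the longer time, with medians of −1.44, −0.97 and −1.57, beside the same shares of all genes. Those lower in all 3 lines at 24 h were the helicase genes MCM2, MCM3, MCM4, MCM5, MCM6, MCM7 and CDC45, the loading factors CDC6 and CDT1, the polymerase and flap nuclease genes POLA1 and FEN1, the nucleotide enzymes RRM1, RRM2 and TYMS, and the regulators E2F1 and CCNE2 (−5.24 to −1.06). All but MCM2 and MCM5 were also lower in all 3 lines at the longer time (−3.45 to −0.73). From 24 h to 5 d in IMR-32 all 17 rose, with a median of 1.75, where 10.8% of all genes were called higher. In SH-SY5Y 8 of 17 rose (median 0.51, 10.5% of all genes), and in SK-N-BE(2)C 1 rose and 1 fell (median 0.12, 17.5% of all genes higher and 14.4% lower). UHRF1 moved with these medians or beyond them in IMR-32 (−4.55 at 24 h and 2.93 from 24 h to 5 d), and DNMT1 less (−1.49 and 0.72). Their summed level was highest in replicate 5 of IMR-32 among the controls (4435 CPM, group median 3268) and at 24 h (1129 CPM, group median 686), the library in which DNMT1, UHRF1 and HELLS were also highest of these groups, and its part in their values was not tested beyond leaving it out.

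**Figure D5:**
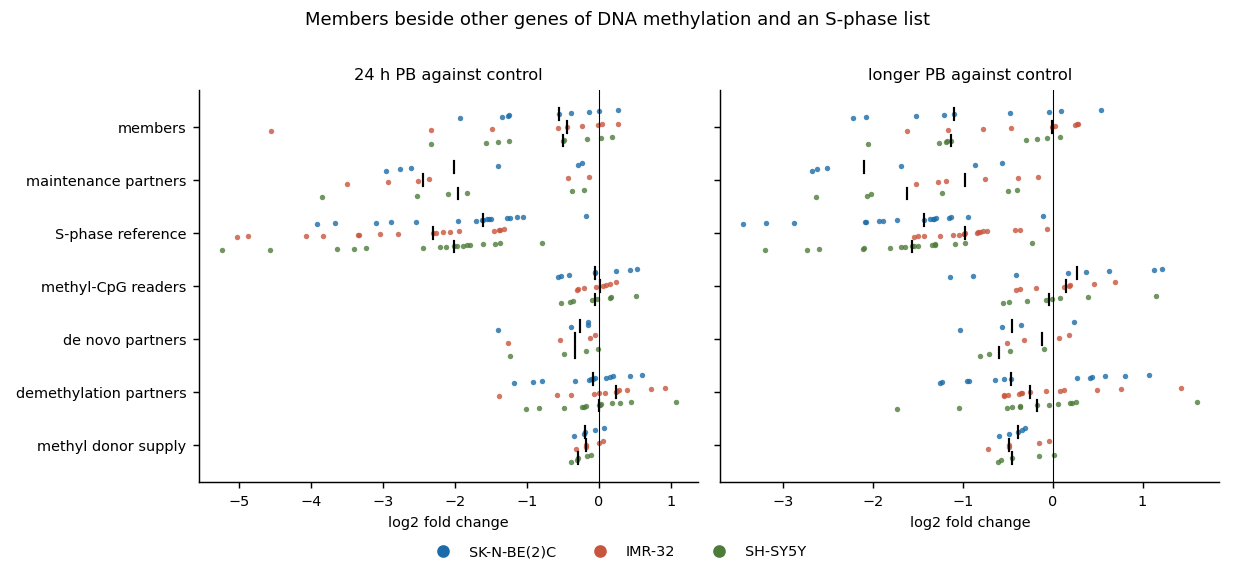
Log2 fold change of each tested gene of the lists by role (points) with list medians, at 24 h and at the longer time, 1 color per line. The maintenance partners and the S-phase genes have 24 h medians between −2.44 and −1.62, while the readers, the demethylation partners and the methyl donor genes have medians between −0.30 and 0.24.

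Of 8 readers of methylated CpG sites, 1 rose and 2 fell at 24 h in SK-N-BE(2)C (10.9% of all genes higher, 10.6% lower). In SH-SY5Y 1 rose (0 by DESeq2) and 1 fell (10.5% higher, 11% lower). In IMR-32 edgeR called 0 (4 at an unadjusted p under 0.05, 0 by DESeq2), where 7.87% of all genes were higher and 10.5% lower. Later 3, 1 and 1 were higher and 2, 0 and 1 lower (24.5%, 16.6% and 18.6% of all genes higher, 22.3%, 15.5% and 17.3% lower), the 0 by edgeR in IMR-32 standing beside 2 at an unadjusted p under 0.05 and 0 by DESeq2. ZBTB4, a zinc finger repressor that binds methylated CpG, was called higher in every line at the longer time, by 1.22 ± 0.09, 0.69 ± 0.12 and 1.15 ± 0.11, its libraries going from 23.7 to 30.8 CPM in control to 57.2 to 78.5 at 7 d in SK-N-BE(2)C. MBD2 fell in SK-N-BE(2)C (−1.14 ± 0.10 at 7 d) and SH-SY5Y (−0.56 ± 0.07 at 5 d) and was at −0.41 ± 0.07 in IMR-32.

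Of 4 tested partners of the de novo enzymes 1, 2 and 1 fell at 24 h, beside those shares of all genes, then 2, 1 and 2. NSD2, a histone H3 lysine 36 methyltransferase, fell in every line at 24 h (−1.41 ± 0.06, −1.27 ± 0.09 and −1.24 ± 0.06) and again after the longer exposure (−1.04 ± 0.06, −0.51 ± 0.09 and −0.81 ± 0.06). QSER1, which limits de novo methylation, was the other gene called, in IMR-32 at 24 h (−0.54 ± 0.14), SK-N-BE(2)C at 7 d (−0.57 ± 0.07) and SH-SY5Y at 5 d (−0.71 ± 0.07). NSD1 and SETD2, which methylate the same residue as NSD2, were not called. The cofactor DNMT3L was at 0 counts in every library but 1, at a mean of at most 0.0112 CPM. Of 13 tested partners of demethylation, 1 rose and 3 fell at 24 h in SK-N-BE(2)C, 1 rose and 2 fell in IMR-32, and 1 rose and 2 fell in SH-SY5Y, beside the same shares of all genes as for the readers. After the longer exposure 3 rose and 6 fell in SK-N-BE(2)C, and 1 rose and 3 fell in each other line, where 24.5%, 16.6% and 18.6% of all genes were higher and 22.3%, 15.5% and 17.3% lower. IDH2, which makes the 2-oxoglutarate that TET enzymes use, fell in every line at 24 h (−0.80 ± 0.11, −0.58 ± 0.10 and −1.02 ± 0.18) and again after the longer exposure (−1.26 ± 0.11, −0.50 ± 0.10 and −1.73 ± 0.19). The uracil glycosylase UNG fell at 24 h (−1.18 ± 0.09, −1.40 ± 0.15 and −0.84 ± 0.08). TDG, the glycosylase that removes the oxidized bases, was at −0.11, 0.09 and −0.23. Of the 5 methyl donor genes edgeR called 0 at 24 h in each line (3, 0 and 4 at an unadjusted p under 0.05, 0 by DESeq2), and 1, 1 and 2 fell at the longer time (3 in IMR-32 by DESeq2), when 22.3%, 15.5% and 17.3% of all genes were lower.

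Germline genes that promoter methylation keeps silent were read for their RNA, and no methylation was measured here. Of 9 found in the tables, 2, 1 and 2 passed the filter on low counts. This filter removes silent genes, so loss of silencing was not tested. Genes with 0 counts in every library of a group numbered 6, 4 and 1 for SK-N-BE(2)C (control, 24 h, longer time). For IMR-32 they were 3, 4 and 1, and SH-SY5Y had 1, 3 and 2. Median sums of the list in control were 95.9 CPM (SK-N-BE(2)C), 13.3 CPM (IMR-32) and 2.00 CPM (SH-SY5Y). TDRD1, of the piRNA pathway, was on in SK-N-BE(2)C alone, at 92.3 ± 9.64 CPM in control, 111 ± 6.89 at 24 h and 68.1 ± 4.96 at 7 d (SD, n = 5), and at most at a mean of 0.0224 CPM in the other lines. TEX19 fell in SK-N-BE(2)C (−1.24 at 24 h and −2.38 ± 0.49 at 7 d), at 5 d of IMR-32 (−1.42 ± 0.23) and at 24 h of SH-SY5Y (−1.09). MOV10L1 in SH-SY5Y rose by 0.92 at 5 d. By DESeq2 1 gene of the list was higher at 5 d of IMR-32, against control and against 24 h, and 1 at 24 h of SH-SY5Y. It also called 1 lower at 24 h of IMR-32. In each of these edgeR called 0. MAEL and ASZ1 were not analysed here.

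The genes whose levels followed each of the 9 most closely were found by Pearson r over the 45 libraries on log2 CPM after line means were removed, among 16282 genes. All points share the 3 groups and the libraries' depth, so r describes a shared pattern over treatment. DNMT1 was closest to KIF11, TPX2 and USP1 (r 0.987, 0.987 and 0.982), UHRF1 to LOC728688, taken to be its copy, and to ATAD2 and TICRR (0.993, 0.986 and 0.981), and HELLS to ARHGAP11A, FAM83D and GINS1 (0.979, 0.977 and 0.976). DNMT3B was closest to CEP78 (0.932), UHRF2 to CDC25C (0.898), DNMT3A to MEF2D (0.893), TET1 to ZNF507 (0.924), TET2 to PWAR5 (0.841) and TET3 to EP300, CREBBP and KMT2D (0.891, 0.869 and 0.861). Among the 9 genes, HELLS followed UHRF1 (0.966) and DNMT1 (0.955), DNMT3A ran against HELLS (−0.763) and DNMT1 (−0.719), and TET2 followed TET3 (0.718).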

How the data were processed

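RNA was extracted from 3 human neuroblastoma cell lines in 9 groups of 5 biological replicates, made into polyA-selected directional libraries and sequenced in pairs. Per the labels, the study's methods and, for versions, the submitters' processing notes, the authors trimmed reads with Trim Galore 0.6.4 (minimum phred score 20), aligned them to hg19 with STAR 2.6.1d (the study's resource list gives another version) and deposited the counts of reads per gene that STAR gives. The strand setting of these counts was not given in the sources used here. Deposited beside them by the authors were CPM values and DESeq2 1.32.0 results with shrunken fold changes, adjusted p-values and their own comparisons. Neither was used, and CPM was computed here as counts over the library total.

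Counts were analyzed in R 4.3.3 with edgeR 4.0.16: the filter filterByExpr (minimum count 10, minimum total 15, minimum proportion 0.7), TMM factors, and for each line its 15 libraries in 1 robust quasi-likelihood model with a mean per group. Tested genes numbered 14055, 14293 and 14547 (SK-N-BE(2)C, IMR-32, SH-SY5Y), and the biological coefficient of variation was 13.8%, 19.8% and 11.2%. Lines were compared in 1 fit of 45 libraries and 16282 genes. Called genes passed both limits of the study, 0.05 for the adjusted p and 0.5 for the size of the log2 fold change. limma 3.58.1 came with edgeR, and DESeq2 1.42.0 was run as an alternative. The fits were tested on simulated data. Fold changes carry an SE taken as their size over the square root of the F statistic of the test. The p-values set a change against the spread between replicate libraries. Counting error and read copies were not separated.

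The 9 genes are given in each comparison, those not called mostly as a range. Genes of other lists are named where they were called in the same direction in all 3 lines, with a few others named after their values were seen. For likeness, the 3 closest genes were found. The 9 genes and all lists were chosen with earlier results of these data known. Alternatives were other scalings, no filter on low counts, DESeq2, other fold limits, a block for the replicate number, and leaving out each library. Deviations of same-numbered libraries from their group means correlated at over 0.1 for every pair in all comparisons of IMR-32 and SH-SY5Y (lowest 0.109). They did so between control and 24 h of SK-N-BE(2)C (lowest 0.243), but not between 7 d and control or 24 h of that line (lowest 0.0966 and 0.0482). Differently numbered libraries reached 0.506 in IMR-32 (control and 24 h) and 0.428 in SK-N-BE(2)C (control and 24 h). In SH-SY5Y (24 h and 5 d) they reached 0.263, against 0.246 for same numbers. The limit of 0.1 therefore does not show that equal numbers form pairs. PRRX1 and SOX10, 2 of the cell markers, were not analysed here. Some details of the lines and 1 marker taken alone are not reported here.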

Additional observations from a re-analysis of the deposited data

Results flagged for a closer look

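In groups of 5 libraries, 1 library lay far from the others for 10 of the 81 gene and group pairs, where chance alone gives about 1 in 20. Of these 6 were replicate 5 of IMR-32, which was the highest for DNMT1 (550 CPM), UHRF1 (318), HELLS (75.9) and TET1 (53.4) in control, for UHRF1 at 24 h (16.3) and for HELLS at 5 d (31.1). Replicate 1 of control SK-N-BE(2)C was the highest for UHRF2 (76.1 CPM) and the lowest for TET2 (48.9 CPM). Replicate 1 of IMR-32 at 5 d was the lowest for UHRF2 (26.4 CPM), and replicate 5 of control SH-SY5Y was the lowest for DNMT3A (186 CPM).

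The response to PB differed between lines for UHRF1, HELLS, DNMT3B, TET1 and TET3 by the test of the difference itself. At 24 h the log2 difference of IMR-32 from SK-N-BE(2)C was −2.62 for UHRF1, −1.09 for HELLS and 0.69 for DNMT3B, and that of SH-SY5Y from IMR-32 was 2.26 for UHRF1, 0.80 for HELLS and −0.65 for DNMT3B. At the longer time that of IMR-32 from SK-N-BE(2)C was 2.07 for DNMT3B and 0.61 for TET1, that of SH-SY5Y from SK-N-BE(2)C was 0.84 for DNMT3B, and that of SH-SY5Y from IMR-32 was −1.23 for DNMT3B, −0.66 for TET1 and −0.50 for TET3. Length of exposure and line cannot be told apart in the differences from SK-N-BE(2)C at the longer time.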

How the results depend on the processing

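The fold limit changed counts of called genes. With 1 in place of 0.5 there were 0 in place of 2 for SK-N-BE(2)C and 0 in place of 1 for SH-SY5Y from 24 h to the longer time, 2 in place of 4 for IMR-32 from 24 h to 5 d, 1 in place of 3 for the longer response between lines and 2 in place of 7 for control levels. Without any fold limit these were 4 for SK-N-BE(2)C, 3 for SH-SY5Y and 6 for the longer response between lines. The share of all genes called was not counted at the limit of 1 or without a limit. Counts at those settings therefore show only how the calls depend on the limit, and cannot be set against all genes. Leaving out 1 library gave 1 to 2 for SH-SY5Y from 24 h to 5 d and 1 to 5 for the longer response between lines. The replicate block changed no call of a count or gene (98 gene results kept their call), nor did summing replicates 3, 4 and 5 of SK-N-BE(2)C, a sum tried because they were close in control and at 24 h. DNMT1, UHRF1 and HELLS against control kept their call under every alternative but the fold limit of 1, where DNMT1 in IMR-32 at 5 d (−0.78) was lost. Values near 0 that were never called changed sign. With library size alone these were TET2 at 24 h of SK-N-BE(2)C (0.025), UHRF2 at 5 d of IMR-32 (0.0038), TET2 at 5 d of SH-SY5Y (0.010) and DNMT3B from 24 h to 5 d of SH-SY5Y (0.041). With no filter they were TET2 at 24 h of SK-N-BE(2)C (0.00033), DNMT3B at 5 d of IMR-32 (−0.00050), DNMT3A from 24 h to 5 d of IMR-32 (−0.00094) and DNMT3B from 24 h to 5 d of SH-SY5Y (0.0043). With all 45 libraries in 1 fit they were DNMT3B at 5 d (−0.017) and DNMT3A from 24 h to 5 d (−0.027) of IMR-32. Leaving out 1 library, or 1 replicate number of a line (3 libraries), gave ranges across 0 for TET2 at 24 h (−0.072 to 0.023) in SK-N-BE(2)C, for TET2 (−0.061 to 0.20) and TET3 (−0.10 to 0.12) at 24 h, UHRF2 (−0.033 to 0.013) and DNMT3B (−0.041 to 0.093) at 5 d and DNMT3A from 24 h to 5 d (−0.045 to 0.067) in IMR-32, and for TET2 at 24 h (−0.047 to 0.081), at 5 d (−0.14 to 0.0055) and from 24 h to 5 d (−0.14 to 0.0064) and DNMT3B from 24 h to 5 d (−0.13 to 0.10) in SH-SY5Y, where TET2 at 5 d and from 24 h to 5 d changed sign, of these settings, only without replicate 5 of all 3 groups. The causes were not tested.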
